A study of Rattus norvegicus with 17 samples.

Results

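The genes Hmox1, Nqo1, Sod2 and Cat encode enzymes of the defence against oxidative stress and were followed here in rat lung. They were chosen by their Ensembl rat gene IDs (Hmox1 ENSRNOG00000014117, Nqo1 ENSRNOG00000012772, Sod2 ENSRNOG00000019048 and Cat ENSRNOG00000008364), as enzymes of that defence, and are 4 of the 32753 genes in the count table. All 4 passed the filter on low counts. The 17 libraries were made from the lung parenchyma of rats of the Wistar strain RjHan:WI and sequenced as bulk RNA. The 6 control libraries came from lungs given NaCl, the 5 bleomycin libraries from lungs given bleomycin at 1 mg per kg, and the 6 treated libraries from lungs given bleomycin at 1 mg per kg together with BI1015550 at 2.5 mg per kg. Bleomycin is a cytotoxic antibiotic that injures the lungs of rodents, and the title of the series calls BI1015550 a PDE4B inhibitor, PDE4B being one of the enzymes that hydrolyse cyclic AMP. No group was given the compound without bleomycin. Age, sex, route and time of dosing are not given in the labels, nor is it stated whether each library is 1 animal or a pool, so the p-values speak only for the spread among these 17 libraries. A library is named by group and by its title number.

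Cells meet oxidants with enzymes that act on different molecules. Superoxide dismutase 2, the product of Sod2, sits in the mitochondrial matrix, uses manganese and turns superoxide into hydrogen peroxide. Catalase, the product of Cat, sits in peroxisomes and breaks hydrogen peroxide down to water and oxygen. Heme oxygenase 1, the product of Hmox1, opens the heme ring and releases biliverdin, carbon monoxide and iron, and is made in large amounts by macrophages and stressed cells. NAD(P)H quinone dehydrogenase 1, the product of Nqo1, reduces quinones without forming semiquinone radicals. Hmox1 and Nqo1 are textbook targets of the transcription factor NRF2, while Sod2 is best known as a target of NF-kB in inflammation.

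The libraries held between 14609389 and 18462105 counts, and each of the 4 genes between 572 and 11564 counts in a library. Counting error alone therefore gives each value a coefficient of variation of 0.93% to 4.18%, below that gene's spread between the libraries of each group. Levels are given as CPM, counts scaled to a fixed library total after scaling of libraries by trimmed mean of M values (TMM), and compare libraries for 1 gene, not genes with each other. Bleomycin libraries 7 and 12 stood apart from the other 3 bleomycin libraries for several of these genes, so the comparisons with the bleomycin group are also given without these 2, a choice made after their values were seen. In whole lung, a change in the number of cells that carry a transcript and a change in the amount per cell cannot be told apart. The count table does not pair IDs with names, so the lung identity of the samples was not checked against marker genes and the markers of macrophages and neutrophils were not analysed here.

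With bleomycin, Hmox1 and Sod2 rose and Cat fell, while Nqo1 lay lower without passing the test. In lungs of rats that also received the compound, Hmox1 and Sod2 were lower and Cat was higher than with bleomycin alone. Of the 4 genes, 3 passed the edgeR quasi-likelihood test at an adjusted p below 0.05 for bleomycin against control, where 38.3% of the 15000 genes tested did. The 2 higher ones stand beside 20.2% of all genes called higher, and the 1 lower one beside 18% called lower. For treated against bleomycin 3 also passed, where 27.8% of all genes did, with 2 lower beside 15.7% of all genes and 1 higher beside 12.1%. For treated against control 0 passed, where 8.39% of all genes did. The first 2 comparisons share the bleomycin libraries, so a bleomycin library far from the rest moves both. The median log2 fold change over all tested genes lay between -0.0072 and 0.0041 in the 3 comparisons.

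**Figure D1:**
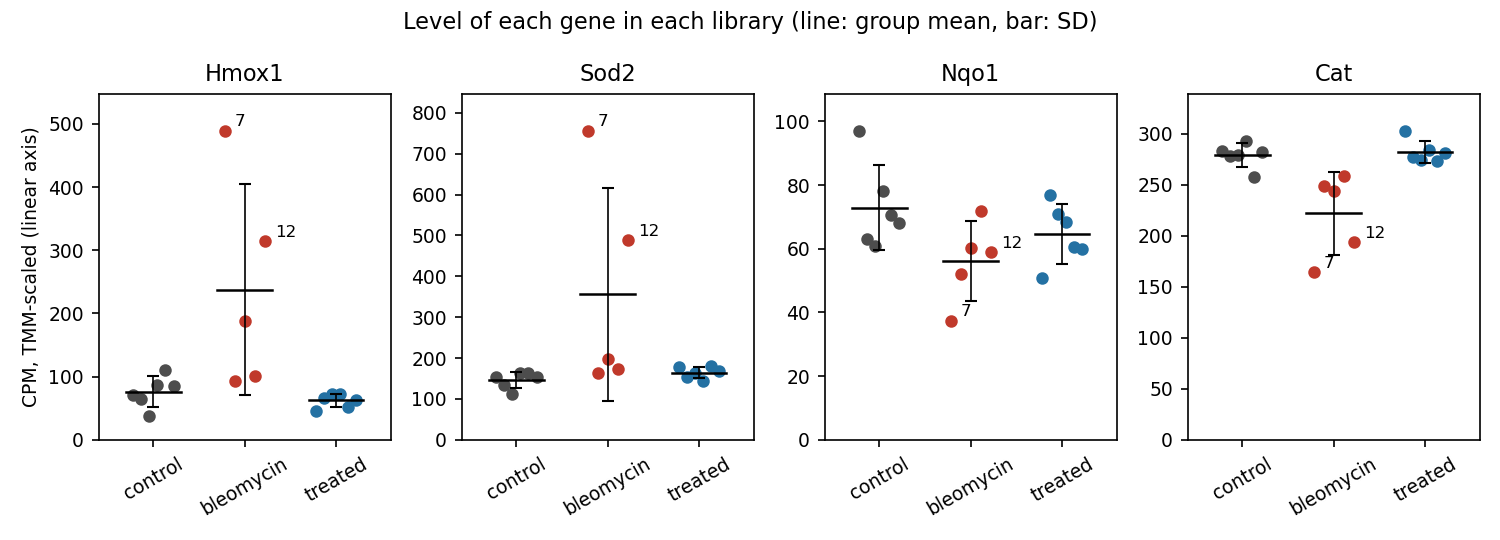
Level of Hmox1, Sod2, Nqo1 and Cat (CPM, linear axis from 0) in each of the 17 libraries, by group, with the group mean as a line and the SD as a bar; bleomycin libraries 7 and 12 are numbered. These 2 libraries hold the highest Hmox1 and Sod2 and the lowest Cat, and library 7 also the lowest Nqo1.

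Hmox1 had the largest fold changes of the 4 genes. In controls its lowest, median and highest levels were 37.7, 77.7 and 111 CPM. Bleomycin library 7 held 489.5 CPM, library 12 held 315 CPM, library 9 held 188 CPM, library 11 held 100.3 CPM and library 8 held 93.9 CPM. In treated lungs the lowest, median and highest levels were 46.4, 65.3 and 72.8 CPM. Libraries 7, 12 and 9 lay above every control, whereas libraries 8 and 11 lay within the range of the controls. Every treated library lay below every bleomycin library.

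The mean of Hmox1 was 75.9 ± 24.7 CPM in the control group (SD, n = 6), 237 ± 167 CPM in bleomycin libraries (SD, n = 5) and 62.3 ± 10.8 CPM in treated ones (SD, n = 6). Bleomycin raised Hmox1 3.13-fold (log2 fold change 1.64, SE 0.353, 95% interval 0.90 to 2.39, edgeR adjusted p = 0.00162), a change larger than that of 96.7% of the tested genes. Treated lungs were 3.81-fold lower than bleomycin lungs (log2 fold change -1.93, SE 0.356, 95% interval -2.68 to -1.18, edgeR adjusted p = 0.00172), a change larger than that of 99.2% of the tested genes. Treated and control lungs were not told apart by the test (log2 fold change -0.29, 95% interval -0.99 to 0.42, edgeR adjusted p = 0.678, and -0.15 without control library 5). A fit of only these 2 groups, free of the bleomycin spread, gave -0.29 (95% interval -0.72 to 0.15, edgeR adjusted p = 0.413). With bleomycin libraries 7 and 12 left out, Hmox1 was the 1 gene of the 4 that passed in either comparison, where 27.6% of all genes did for bleomycin against control and 15.6% for treated against bleomycin. The log2 fold change was then 0.75 against control (edgeR adjusted p = 0.0463) and -1.03 for treated against bleomycin (edgeR adjusted p = 0.021).

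Sod2 was also highest with bleomycin, most of all in 2 libraries. Its lowest, median and highest levels in controls were 113, 154 and 165 CPM. Bleomycin library 7 held 757 CPM, library 12 held 488 CPM, library 9 held 198 CPM, library 11 held 174 CPM and library 8 held 164 CPM. In treated lungs the lowest, median and highest levels were 143, 166 and 179.6 CPM. Libraries 7 and 12 were far above all others, library 9 was above every control and every treated library, library 11 was above every control and within the treated range, and library 8 lay within the range of both.

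The mean of Sod2 was 147 ± 19.99 CPM in the control group (SD, n = 6), 356 ± 261 CPM in bleomycin libraries (SD, n = 5) and 165 ± 13.9 CPM in treated ones (SD, n = 6). Sod2 rose 2.42-fold with bleomycin (log2 fold change 1.27, SE 0.309, 95% interval 0.62 to 1.93, edgeR adjusted p = 0.0038). It was 2.16-fold lower in treated than in bleomycin lungs (log2 fold change -1.11, SE 0.309, 95% interval -1.76 to -0.46, edgeR adjusted p = 0.0139). These changes of Sod2 were larger than those of 93.9% and 96% of the tested genes, in that order. Treated against control gave a log2 fold change of 0.16 (95% interval -0.46 to 0.78, edgeR adjusted p = 0.80, and 0.096 without control library 3). That interval uses a spread shared with the bleomycin libraries. A fit of only the 2 groups compared gave 0.157 (95% interval -0.039 to 0.354, edgeR adjusted p = 0.314). For bleomycin against control such a fit gave an SE of 0.362 (edgeR adjusted p = 0.0172), and for treated against bleomycin 0.36 (edgeR adjusted p = 0.0388). Without bleomycin library 7 the log2 fold change was 0.80 against control (edgeR adjusted p = 0.0149) and -0.64 for treated against bleomycin (edgeR adjusted p = 0.0577). Without libraries 7 and 12 neither passed, at 0.28 (edgeR adjusted p = 0.0715) and -0.12 (edgeR adjusted p = 0.476, 95% interval -0.36 to 0.12), and limma voom with quality weights on all libraries gave -0.55 for treated against bleomycin (adjusted p = 0.0837).

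Cat moved the other way and by less. Its lowest, median and highest levels in controls were 258, 281 and 293 CPM. Bleomycin library 7 held 164 CPM, library 12 held 194 CPM, library 9 held 244 CPM, library 8 held 248 CPM and library 11 held 258.5 CPM. In treated lungs the lowest, median and highest levels were 274, 279 and 303 CPM. Libraries 7, 12, 9 and 8 lay below every control and library 11 just inside the control range, while every treated library lay above every bleomycin library.

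The mean of Cat was 279 ± 11.5 CPM in the control group (SD, n = 6), 222 ± 40.7 CPM in bleomycin libraries (SD, n = 5) and 282 ± 10.97 CPM in treated ones (SD, n = 6). Bleomycin changed Cat by -20.5% (log2 fold change -0.33, SE 0.096, 95% interval -0.53 to -0.13, edgeR adjusted p = 0.012). Treated lungs were 27.2% higher than bleomycin lungs (log2 fold change 0.35, SE 0.0961, 95% interval 0.14 to 0.55, edgeR adjusted p = 0.0139). These changes of Cat were larger than those of only 56.6% and 64.2% of the tested genes, in that order. The level in treated lungs was 1.14% above that in control lungs (95% interval -11.4% to 15.5%, edgeR adjusted p = 0.942), the smallest difference of the 4 genes in that comparison. A fit of only these 2 groups gave a log2 fold change of 0.011 (95% interval -0.105 to 0.127, edgeR adjusted p = 0.924). Without bleomycin libraries 7 and 12 the log2 fold changes were -0.15 against control (edgeR adjusted p = 0.0815) and 0.17 for treated against bleomycin (edgeR adjusted p = 0.0723). Without treated libraries 13 and 17, which lie nearest the controls over all genes, the second was 0.33 (edgeR adjusted p = 0.0589).

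Nqo1 did not pass the test in any of the 3 comparisons. Its lowest, median and highest levels in controls were 60.7, 69.4 and 97.1 CPM. Bleomycin library 7 held 37.4 CPM, library 8 held 52.2 CPM, library 12 held 58.95 CPM, library 9 held 60.1 CPM and library 11 held 72.0 CPM. In treated lungs the lowest, median and highest levels were 50.65, 64.4 and 76.9 CPM. Of the bleomycin libraries, 4 lay below every control, and all but library 7 lay within the treated range.

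The mean of Nqo1 was 72.9 ± 13.3 CPM in the control group (SD, n = 6), 56.1 ± 12.6 CPM in bleomycin libraries (SD, n = 5) and 64.6 ± 9.37 CPM in treated ones (SD, n = 6). Bleomycin against control gave a log2 fold change of -0.38 (SE 0.151, 95% interval -0.70 to -0.06, edgeR adjusted p = 0.0566). That value passed the threshold with DESeq2 (adjusted p = 0.0435), without bleomycin library 11 (edgeR adjusted p = 0.02) and without control library 3 (edgeR adjusted p = 0.0454), and was -0.24 without bleomycin libraries 7 and 12 (edgeR adjusted p = 0.248). Treated against bleomycin gave 0.20 (95% interval -0.12 to 0.52, edgeR adjusted p = 0.328), so a rise of up to 43.4% or a decrease down to -7.68% is within the interval. That value was 0.086 without bleomycin library 7, 0.31 without bleomycin library 11 and 0.071 without libraries 7 and 12. Treated against control gave -0.18 (95% interval -0.48 to 0.13, edgeR adjusted p = 0.518), and -0.074 without control library 1 or -0.11 without treated library 13. The changes of Nqo1 for bleomycin against control and treated against bleomycin were larger than those of 61.6% and 41.9% of the tested genes.

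**Figure D2:**
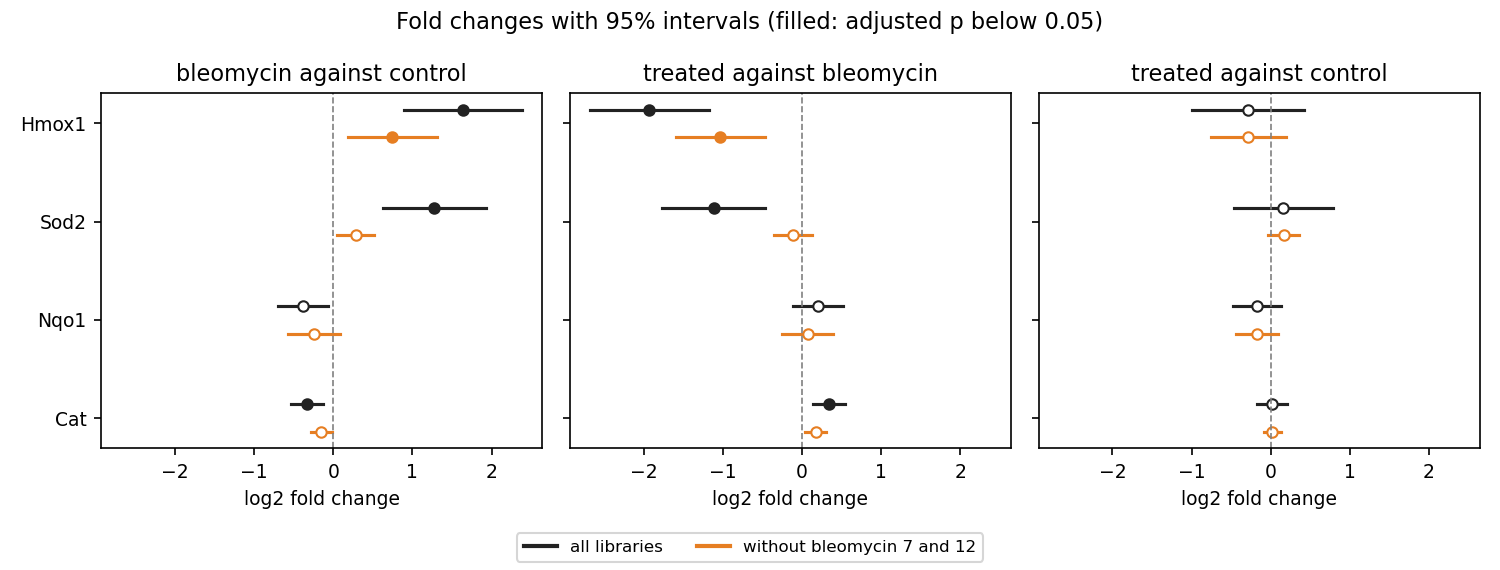
Log2 fold change of each gene in the 3 comparisons with its 95% interval, for all libraries and without bleomycin libraries 7 and 12; filled points have an adjusted p below 0.05. With all libraries 3 genes pass in each comparison with bleomycin, beside 38.3% (against control) and 27.8% (treated against bleomycin) of all genes. Without those 2 libraries Hmox1 alone passes, beside 27.6% and 15.6% of all genes in the same order.

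The ranges of bleomycin and control libraries overlapped for all 4 genes, and 18.1% of all tested genes had ranges apart. Those of treated and bleomycin libraries did not overlap for 2 of the 4 genes, Hmox1 and Cat, against 14.1% of all tested genes. Treated and control ranges overlapped for all 4 genes, against 5.59% of all genes with ranges apart. For treated against control, 0 of the 4 genes had an unadjusted edgeR p below 0.05, where 22.6% of all genes did. Likewise 0 passed with DESeq2, where 12.1% of all genes did, or with limma voom, where 17% did. An exact permutation test of log2 CPM without adjustment also gave 0, but was run on these 4 genes only, so no share of all genes stands beside it. With only 4 genes, a count of 0 beside shares of this size says little about these genes.

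The genes also differed in how much they varied between libraries of a group. The coefficient of variation of Cat was 4.14% in controls and 3.89% in treated lungs, against 18.4% with bleomycin. In controls, 2.74% of the tested genes had a smaller SD of log2 CPM than Cat. Hmox1 varied more than Cat in every group, by 32.5% in controls, 70.4% with bleomycin and 17.4% in treated lungs, and its highest bleomycin library held 5.21 times the level of its lowest. Sod2 varied by 13.6% in controls, 73.4% with bleomycin and 8.45% in treated lungs. Nqo1 had similar coefficients of variation in the groups, 18.3%, 22.5% and 14.5% in the same order. The bleomycin group had the SD of log2 CPM above that of 97.8% of tested genes for Hmox1 and 97.6% for Sod2. Differences in spread between groups were not tested.

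Whether the genes changed by different amounts was asked from the ratio of their counts within each library, which does not depend on how libraries are scaled. The 6 pairs were compared in the 3 comparisons by two-sided exact permutation tests, with p-values adjusted over all 18, and the smallest p that 5 against 6 libraries allow is 0.00216. The 6 ratios are built from the same 4 genes, so they are not independent of each other or of the single-gene changes. Ratios of other gene pairs were not computed, so no background share stands beside these. With bleomycin, Sod2 rose relative to Cat by 1.35 on the log2 scale (exact permutation adjusted p = 0.00779) and relative to Nqo1, whose ratio to Sod2 differed from control by -1.39 (exact permutation adjusted p = 0.00779). Hmox1 rose relative to Nqo1 by 1.82 (exact permutation adjusted p = 0.0111) and relative to Cat by 1.78 (exact permutation adjusted p = 0.0146). The ratio of Hmox1 to Cat missed the threshold without control library 1, 2, 4 or 6 (exact permutation adjusted p = 0.0536 for each), at differences of 1.74 to 1.82. Without bleomycin libraries 7 and 12, the ratios of Hmox1 to Nqo1 and to Cat gave 0.99 and 0.90, each with an exact permutation adjusted p of 0.107. Those of Sod2 to Cat and of Nqo1 to Sod2 then gave 0.44 and -0.53 and passed (exact permutation adjusted p = 0.0429 for each). Both sat at the smallest p that so few libraries allow. Passing then depended on how many of the 18 tests shared that p. The difference for Nqo1 to Sod2 was -0.90 without library 7 alone.

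Between Hmox1 and Sod2 the rise was not told apart (log2 ratio difference 0.43, exact permutation adjusted p = 0.0693, 0.0159 without control library 5 and 0.175 without bleomycin libraries 7 and 12, where the difference was 0.46). In treated against bleomycin lungs, however, Hmox1 was lower relative to Sod2 by a difference of -0.83 on the log2 scale (exact permutation adjusted p = 0.0111). The log2 ratio of Hmox1 to Sod2 lay between -1.93 and -0.99 in treated libraries and between -0.80 and -0.075 in bleomycin libraries, so the groups did not overlap. Without bleomycin libraries 7 and 12 that difference was -0.86, with an exact permutation adjusted p of 0.0714 from fewer libraries. Hmox1 was also lower relative to Nqo1 by -1.88 and to Cat by -2.02, and Sod2 relative to Cat by -1.19 (exact permutation adjusted p = 0.00779 for each). Leaving out bleomycin libraries 7 and 12, these were -1.05, -1.15 and -0.29 (exact permutation adjusted p = 0.0429 for each, again at the smallest p that so few libraries allow). The difference for Sod2 to Cat was -0.75 without library 7 alone. The ratio of Nqo1 to Sod2 was 1.05 higher but missed the threshold (exact permutation adjusted p = 0.0779). It was 1.33 without bleomycin library 11 (exact permutation adjusted p = 0.0381), 0.57 without library 7 (0.157) and 0.19 without libraries 7 and 12 (0.471). The ratio of Nqo1 to Cat did not pass in any comparison, with differences of -0.041, -0.15 and -0.19 and exact permutation adjusted p-values of 0.768, 0.404 and 0.301. For treated against control 0 of the 6 pairs passed, and the lowest exact permutation p before adjustment was 0.0649. Without control library 3, Hmox1 against Sod2 gave -0.51 (exact permutation adjusted p = 0.0476).

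**Figure D3:**
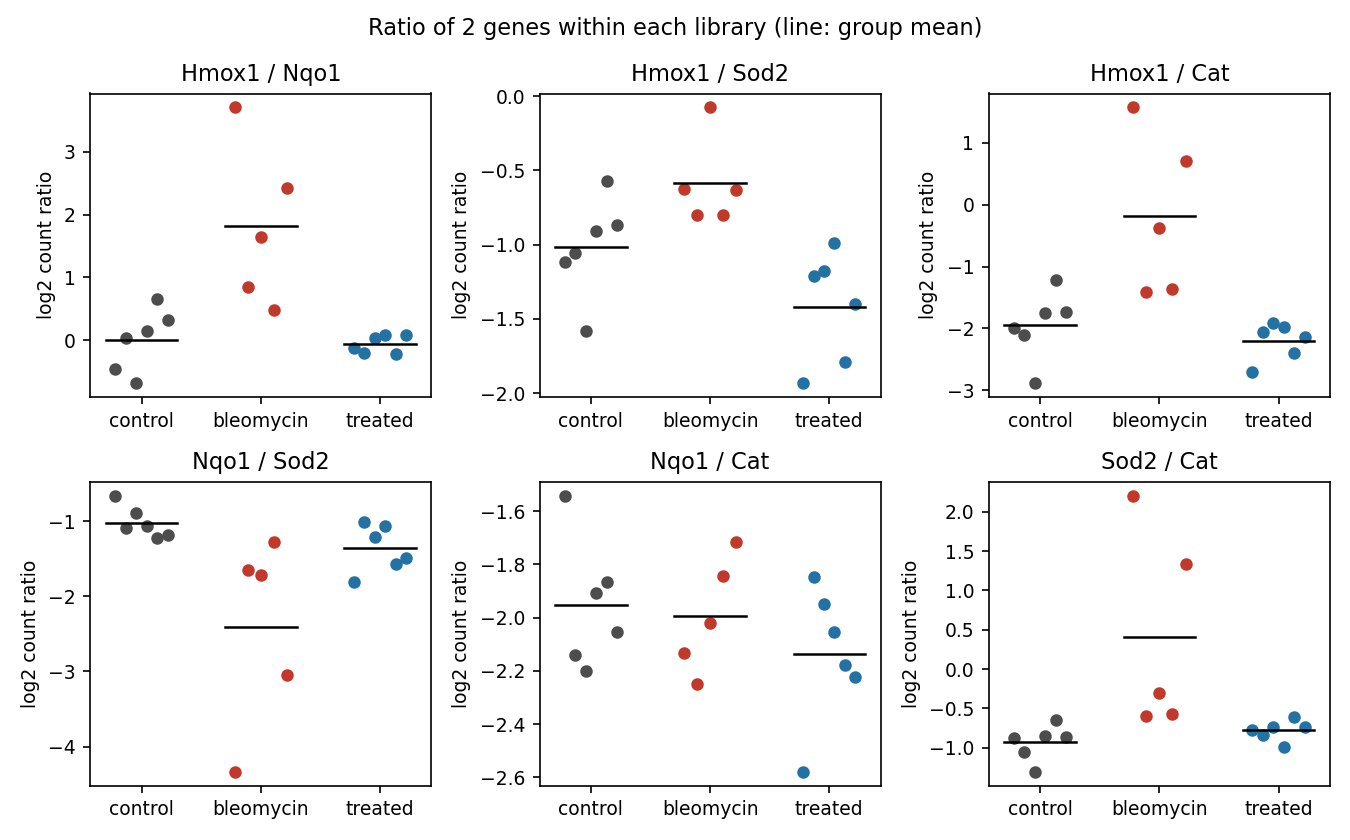
Log2 ratio of the counts of 2 genes within each library, for the 6 pairs, by group, with the group mean as a line. The ratios of Hmox1 to Nqo1, Sod2 and Cat and of Sod2 to Cat lie apart in treated and bleomycin libraries. The 6 ratios share their genes, and no share for pairs of other genes was computed.

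The order of the bleomycin libraries was shared between genes. On the first principal component of all tested genes, which held 35.8% of the variance, bleomycin library 7 lay at 68.2, library 12 at 52.4, library 9 at 41.6, library 11 at 31.5 and library 8 at 25.5. Hmox1 and Sod2 had the same order of libraries, from highest to lowest. Cat had libraries 7, 12 and 9 as its lowest, in that order, and Nqo1 had library 7 lowest and library 11 highest. Controls lay between -38.4 and -25.7 on this axis and treated libraries between -13.4 and 8.57. The total counts of libraries 7 and 12, 15930870 and 15832359, lay between those of the other bleomycin libraries (15207791 to 16192209). The part of this shared axis in the changes of the 4 genes was not tested.

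**Figure D4:**
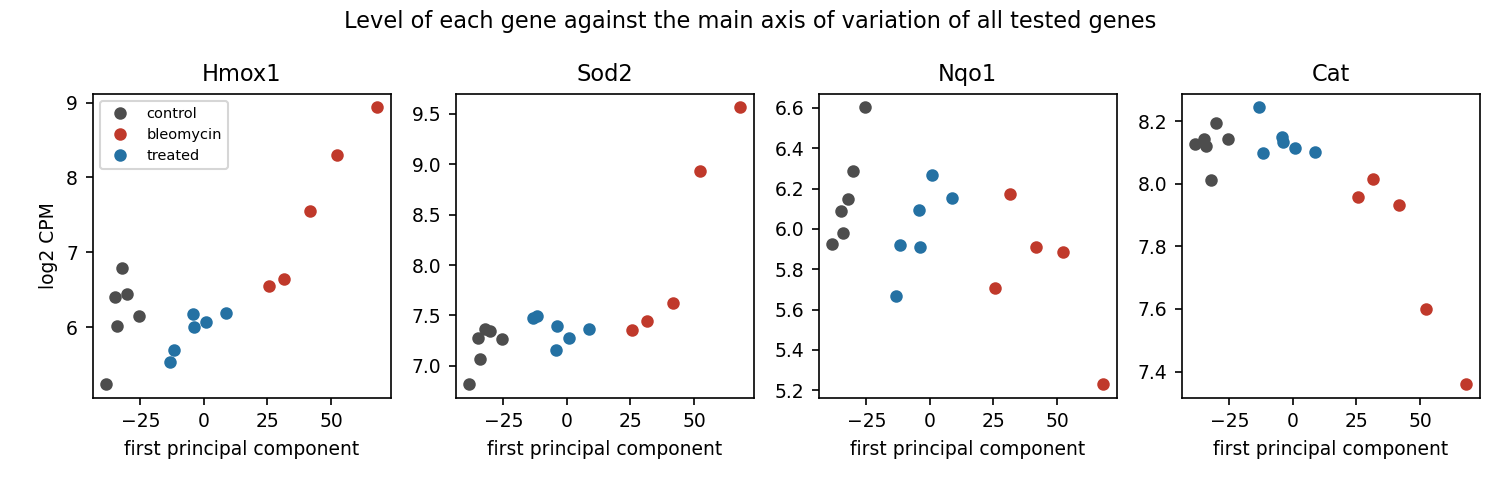
Level of each gene (log2 CPM) in each library against the library's position on the first principal component of all tested genes, by group. Among bleomycin libraries Hmox1 and Sod2 are higher and Cat lower towards library 7 at 68.2, while treated libraries, between -13.4 and 8.57, show levels near those of controls.

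Within groups, Sod2 and Hmox1 varied together and Cat against them, as a description over 17 libraries that share their group and scaling. After each group's mean was removed, the Pearson r of log2 CPM was 0.857 for Hmox1 with Sod2 (Spearman rho 0.73), -0.91 for Sod2 with Cat (rho -0.652) and -0.82 for Hmox1 with Cat (rho -0.659). Without bleomycin libraries 7 and 12 the same r was 0.618 for Hmox1 with Sod2, -0.0517 for Sod2 with Cat and -0.418 for Hmox1 with Cat, over 15 libraries. The size of the Pearson r of Sod2 with Cat thus depends on those libraries, which were left out after their values were seen. Spearman rho was not computed without them. Nqo1 had an r of -0.193 with Hmox1, -0.44 with Sod2 and 0.479 with Cat over the 17 libraries, and of 0.396, 0.166 and -0.0643 without the same libraries.

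Of the 11724 other genes with a mean of at least 5 CPM, the one most like each member was taken as that with the highest Pearson r of log2 CPM over the 17 libraries after removal of group means. It was ENSRNOG00000013791 for Hmox1 (r = 0.928), which had 49.3 ± 12.6 CPM in the control group, 109 ± 77.9 CPM in bleomycin libraries and 43.4 ± 14.5 CPM in treated ones. It was ENSRNOG00000011329 for Sod2 (r = 0.957), with 19.2 ± 0.927, 26.5 ± 12.3 and 18.8 ± 1.52 CPM in the same order. It was ENSRNOG00000002664 for Cat (r = 0.953), with 1224 ± 141, 729 ± 245 and 1008 ± 111 CPM. It was ENSRNOG00000013949 for Nqo1 (r = 0.936), with 165 ± 19.0, 175 ± 19.8 and 152 ± 9.89 CPM (all SD, n = 6, 5 and 6). These 4 genes are known here by ID only. These r values include bleomycin libraries 7 and 12. Each is the highest of 11724, so it is high in part through the selection. Without removal of group means r was 0.933 for the gene most like Hmox1, 0.94 for Sod2, 0.934 for Cat and 0.546 for Nqo1.

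The bases before the start of Sod2 and Cat are shown because these genes moved in opposite directions in the same libraries. They are RefSeq sequences of the build GRCr8, from the table of windows from 250 bases before to 50 bases after each gene's start, of which the 250 bases before the start are printed. The Sod2 stretch is chr1:50050169-50050418 and the Cat stretch is chr3:110329527-110329776, both on the minus strand and written 5′ to 3′. Capitals mark the letters that match a searched motif.
Sod2: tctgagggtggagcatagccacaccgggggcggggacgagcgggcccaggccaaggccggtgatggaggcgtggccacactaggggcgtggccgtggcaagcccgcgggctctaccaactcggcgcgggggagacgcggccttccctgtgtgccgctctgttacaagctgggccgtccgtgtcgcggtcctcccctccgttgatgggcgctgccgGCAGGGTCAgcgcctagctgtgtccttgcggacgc
Cat: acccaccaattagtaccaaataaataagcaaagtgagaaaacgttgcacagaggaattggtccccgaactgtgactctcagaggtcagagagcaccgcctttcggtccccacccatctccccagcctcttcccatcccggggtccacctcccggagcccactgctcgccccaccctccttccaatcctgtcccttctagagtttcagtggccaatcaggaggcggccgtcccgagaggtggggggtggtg

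The motifs were searched as letters on both strands of the whole windows of Nqo1, Sod2 and Cat, while the window of Hmox1 was not analysed here. They were the core of the antioxidant response element bound by NRF2 (TGACNNNGC), the AP-1 site (TGANTCA), the cyclic AMP response element (TGACGTCA), its core (TGACG, which also lies within the full element and can lie within TGACNNNGC) and the heat shock element (GAANNTTC). The Sod2 window held 1 match, GCAGGGTCA, which reads TGACNNNGC on the other strand and begins 35 bases before the start. This motif was held by 12.1% of the 33469 windows searched, which do not cover every gene and have none for Hmox1. The Cat window held 1 match to TGACG, beginning 42 bases after the start and so outside the printed stretch, a motif held by 21.2% of all windows. The Nqo1 window held none of the motifs, of which AP-1 was found in 7.33%, the full cyclic AMP response element in 1.83% and the heat shock element in 8.59% of windows. A match of letters is not a binding site, and none says only that the letters are not in this window. The GC content of the printed stretches was 71.6% for Sod2 and 58.8% for Cat, and that of the 250 bases before Nqo1 was 56.4%.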

How the data were processed

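TruSeq mRNA libraries of rat lung parenchyma were sequenced, per the labels' protocols. The authors deposited raw read counts per gene in 1 table, and its 17 columns each matched the description of 1 sample. Per the submitters' processing notes, FastQC 0.11.5, bcl2fastq 2.20.0.422, RSEM 1.3.0, featureCounts 1.5.1 and STAR (2.5.2, 2.5.2b) were used with builds Rnor_6.0, hg38 and GRCh38, without roles. The sources used here do not name the counter, its strand setting or a filter, so reads shared with overlapping genes or near-identical copies may be lost or split.

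The 4 gene names came with their IDs when the members were chosen. Neither the planned lists of antioxidant pathway genes nor those of cell type markers were run, because the rat gene table (GRCr8) has no Ensembl IDs. Members, lists and tests were chosen with earlier results of these data known. Genes named are the 4 members and the gene most like each.

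The edgeR 4.0.16 package in R 4.3.3 was used on the counts. The filter filterByExpr kept 15000 of 23083 genes with a count. Libraries were scaled by TMM, and 1 quasi-likelihood model of 3 groups was fitted to all 17, with Benjamini-Hochberg adjustment over the 15000 genes and a threshold of 0.05. Each interval thus uses a spread shared by the 3 groups, also where the bleomycin group is not compared. The SE is the size of the log2 fold change over the square root of F. Log2 CPM had a prior count of 2, and count ratios had 0.5 added to each count. Alternatives were DESeq2 1.42.0, limma 3.58.1, other scalings, no filter, only the groups compared, a robust spread, an exact permutation test and libraries left out. The fit was also run on simulated counts. Libraries of a group were no duplicates: the chi-square per gene was at least 11 in all 40 pairs.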

Additional observations from a re-analysis of the deposited data

Results flagged for a closer look

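The levels of the 4 genes in the 3 groups make 12 sets of values, and in 1 of them a single library stood well off from its group. Cat reached 303 CPM in treated library 13, with the remaining 5 at 274 to 284 CPM, so that the distance to its nearest neighbour made up 0.652 of the whole range, past the limit of Dixon's test. About 1 in 20 groups would show this by chance. Without treated library 13 the log2 fold change of Cat for treated against control was -0.0051.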

How the results depend on the processing

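Of 459 recomputed values of single genes, of counts of genes called and of counts of pairs, 438 kept their direction and their side of the threshold or stayed within 1.5 times the count. Of 342 recomputed differences of single pair ratios, 328 did so, 7 lost the call, 3 gained it and 4 changed sign. Leaving out a library of the group not compared cannot change a pair difference and hardly moves the fold change of a single gene. Such recomputed values are among these totals, which therefore overstate how much was put to the test. Without bleomycin libraries 7 and 12 the calls of Sod2 (0.28 and -0.12 in the comparisons of bleomycin with control and of treated with bleomycin) and Cat (-0.15 and 0.17 in the same order) were lost, the genes called for treated against bleomycin went from 4163 to 2381, and 2 pairs of genes differed with bleomycin in place of 4; this leaves 3 bleomycin libraries. Without treated libraries 13 and 17 Cat gave 0.33 for treated against bleomycin, no longer past the threshold, and 1929 genes were called. Limma voom gave -0.55 for Sod2, treated against bleomycin, past no threshold, and 2546 genes called for treated against control, where leaving out 1 library gave 794 to 1573 against 1259. Nqo1, bleomycin against control, passed with DESeq2 (-0.38) and with an unadjusted exact permutation test (-0.39, p = 0.0455), and lay between -0.48 and -0.26 when 1 library was left out. Sod2, treated against bleomycin, lay between -1.29 and -0.64 when 1 library was left out. Cat, treated against control, lay between -0.0055 (without control library 5) and 0.031, and was -0.0051 without treated library 13. Pairs that passed for treated against control were 0 to 1 when 1 library was left out, the 1 being Hmox1 and Sod2 without control library 3 (-0.51, exact permutation adjusted p = 0.0476). Of differences not past the threshold, the ratio of Nqo1 to Cat with bleomycin lay between -0.11 and 0.041 when 1 library was left out (0.041 without control library 1, 0.023 without bleomycin library 8), and that of Hmox1 to Nqo1, treated against control, between -0.20 and 0.069 (0.069 and 0.0025 without control library 5 or 6). The cause was not tested for any of these. Without gene names, no alternative of the pathway lists could be run. No paired analysis was possible because no library number occurs in more than 1 group. The counts behind these genes are high, and for each gene the counting error (0.93% to 4.18% over the 4 genes) lay below its spread between libraries of a group. What limits the precision was not tested.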
